A study of Homo sapiens with 27 samples.

Results

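Gene expression was compared between HuH-7 cells edited at KLB and HuH-7 cells edited at both FGFR3 and FGFR4, to measure how far loss of a co-receptor and loss of a pair of its receptors lead to the same transcriptome. The comparison uses 6 of the series' 27 RNA-seq libraries, 3 with guides against KLB (sgKLB, genotype labelled KLB knockout) and 3 with guides against FGFR3 and FGFR4 (sgFGFR3/4, genotype labelled FGFR3/4 knockout). It covers the 14716 of 58735 annotated genes that reached 1 FPKM (a fragment count scaled by transcript length and by library size) in at least 3 of the 12 HuH-7 libraries. At the edge of that rule, 441 genes reached it in exactly 3 libraries and 705 in exactly 2, which left them out. HuH-7 is a human hepatocellular carcinoma line. The reference groups are 3 HuH-7 libraries with non-targeting guides (sgNTC, genotype WT) and 3 with guides against FGFR4 alone (sgFGFR4). All were grown as cultured cells in DMEM with fetal bovine serum, with no other agent named in the labels. The same pair of knockouts in JHH-7, another liver cancer line, gave 6 further libraries, set beside the JHH-7 sgNTC libraries. The JHH-7 fits also held its libraries with guides against FGFR4 alone (sgFGFR4) and against FGFR1, FGFR3 and FGFR4 (sgFGFR1/3/4). The test of the difference between lines used all 27 libraries. The libraries of a group are labelled biological replicates, but the sources used here do not say whether they came from separate cultures, so p-values measure the spread between these samples. Whether a group is 1 clone or a pool, and how much target protein was left, is not given in the sources used here.

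Beta-klotho, the product of KLB, is a membrane protein without kinase activity that lets the hormone FGF19 bind and activate FGF receptors, above all FGFR4 in liver cells. The active receptor signals through FRS2, GRB2 and SOS to the RAS and ERK cascade, which induces the transcription factors ETV4 and ETV5 and the feedback inhibitors of the Sprouty family. In hepatocytes this pathway represses bile acid synthesis, and in liver cancer it can drive proliferation.

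The targeted transcripts were read first and matched the labels. KLB (ENSG00000134962; GRCh38 chromosome 4, 39406853 to 39451536) stood at 6.09, 7.25 and 6.23 FPKM in the sgKLB libraries and at 22.8, 20.9 and 22.9 in the sgFGFR3/4 libraries, a direct difference, sgKLB minus sgFGFR3/4 on the scale of log2(FPKM + 1), of -1.63 ± 0.098 (SE; adjusted p 6.91e-06). The sgFGFR3/4 level was also above that of sgNTC, 18.6, 17.4 and 15.2 FPKM, by 0.36 (adjusted p 0.0277). FGFR3 (ENSG00000068078; chromosome 4, 1793293 to 1808872) was at 47.4, 46.6 and 46.1 FPKM in sgFGFR3/4 and at 107, 96.8 and 106 in sgKLB, a difference of 1.13 ± 0.057 (SE; adjusted p 2.98e-06). FGFR4 (ENSG00000160867; chromosome 5, 177086886 to 177098144) was at 87.1, 95.4 and 88.3 FPKM in sgFGFR3/4 and at 224, 187 and 211 in sgKLB, a difference of 1.19 ± 0.071 (SE; adjusted p 6.91e-06). None of the 3 transcripts was lost, and for each the 6 values of both knockouts did not overlap. In sgKLB, FGFR3 also lay below its sgNTC level by a small margin (-0.19, adjusted p 0.0429), while FGFR4 did not pass the threshold there (-0.20, adjusted p 0.0695). Adjusted p-values are from limma throughout, with Benjamini-Hochberg adjustment over all genes of a comparison and 0.05 as the threshold. FGFR1 and FGFR2, the receptors that were not targeted, were low in every HuH-7 group. FGFR1 was at 6.73, 4.52 and 6.24 FPKM in sgKLB and 5.83, 6.54 and 4.33 in sgFGFR3/4, with a direct interval of -0.34 to 0.46, and at 6.15, 4.54 and 6.92 in sgNTC and 4.65, 5.15 and 5.80 in sgFGFR4. FGFR2, too low to be kept, was at 0.440 to 1.05 FPKM in sgKLB, 0.370 to 0.900 in sgFGFR3/4, 0.210 to 0.400 in sgNTC and 0.470 to 0.570 in sgFGFR4. The added 1 makes log2 differences of genes with low FPKM smaller than the ratio of their FPKM.

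Depth, estimated from the steps between low FPKM values, was 14400000 to 24200000 fragments in the 6 libraries. Across 14709 genes with an annotated sequence, the direct difference rose with the GC content of the transcript, with a Spearman correlation of 0.42 across genes, which share the libraries. Against sgNTC the same correlation was 0.02 for sgKLB and -0.31 for sgFGFR3/4. Among genes averaging 3 or more in log2(FPKM + 1), the median direct difference was -0.27 in the tenth of genes with the lowest GC content and 0.067 in the tenth with the highest. The sgFGFR3/4 replicates were not alike in this: the GC correlation of a library's deviation from the mean of all 12 was -0.33 and -0.37 in replicates 1 and 3, but 0.21 in replicate 2. In the sgKLB libraries it was 0.45, 0.05 and 0.24. After a correction of each library for GC content and transcript length the correlation of the direct difference fell to -0.04. The part of GC content in any single difference was not tested, and the gene results below give corrected values where the correction ended a call.

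Hepatocyte line markers were present in both knockouts, with all 11 markers kept, among them albumin (ALB) at 3429 to 3940 FPKM in sgKLB and 3392 to 3597 in sgFGFR3/4. Of 18 stromal, endothelial and immune markers 8 were kept, and their sum over the list was 353.6 to 363.4 FPKM in sgKLB and 404.9 to 437.7 in sgFGFR3/4. LUM, which encodes a matrix proteoglycan, was at 139, 160.5 and 143 FPKM in sgKLB and 214, 195 and 249 in sgFGFR3/4 (-0.56, adjusted p 0.0419). After GC and length correction that difference was -0.21 (adjusted p 0.0795), and it passed neither with TPM or quantile scaling nor with 1 library left out, except sgFGFR3/4 replicate 2. CD14 spanned 122 to 129.7 and 121 to 141 FPKM, while KDR, MS4A1 and NKG7 were at 0 in all 6 libraries and PTPRC stayed at or below 0.160 FPKM. The part of other cell types in any difference was not tested.

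Loss of KLB and joint loss of FGFR3 and FGFR4 left HuH-7 transcriptomes that were alike for most well expressed genes. Among the 8843 genes that averaged 3 or more in log2(FPKM + 1) over the 6 libraries, 6340 (71.7%) had a 95% interval of the direct difference wholly within -0.5 to 0.5. The same share was not counted for either knockout against sgNTC or sgFGFR4, so it does not show likeness beyond that of other HuH-7 groups. Correlations of log2 values between libraries were taken among genes averaging 3 or more over all HuH-7 libraries, which leaves out low genes. The correlation was 0.967 to 0.985 between an sgKLB and an sgFGFR3/4 library. Within groups, it was 0.976 to 0.986 between sgFGFR3/4 libraries and 0.985 to 0.987 between sgKLB libraries. It was 0.973 to 0.985 between an sgFGFR3/4 and an sgFGFR4 library and 0.947 to 0.977 between an sgFGFR3/4 and an sgNTC library, so pairs of sgFGFR3/4 with each other group reached into the range of its own replicates. Among the 8843 genes that averaged 3 or more over the 6 libraries, the median absolute difference was 0.12, and the 95th percentile was 0.50. Over all 14716 genes kept, 7577 (51.5%) lay within that margin. A direct difference passed the threshold for 81 genes (0.55%), of which 32 (0.217%) were higher in sgKLB and 49 (0.333%) lower, and 15 of the 81 differed by at least 1. For 16 of the 81, PCNA, FEN1 and UHRF1 among them, the interval also lay within the margin. A gene can thus be counted both as different and as alike. The 6 values did not overlap between the knockouts for any of the 81, but genes chosen by a small p tend to separate. The share of all genes kept without overlap was not counted, so this is no separate support. A further 7074 genes were neither past the threshold nor within the margin, so for these the data show neither a difference nor likeness. The unadjusted p was below 0.05 for 2564 genes.

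For scale, sgKLB differed from sgNTC in 2591 genes (17.6%), 1322 higher (8.98%) and 1269 lower (8.62%). The corresponding count for sgFGFR3/4 was 2371 (16.1%), 1309 higher (8.9%) and 1062 lower (7.22%). Both comparisons share the sgNTC libraries. The split into higher and lower genes depends on scaling: after GC and length correction the direct comparison had 86 higher and 57 lower of 143, and sgFGFR3/4 against sgNTC had 1016 higher and 1638 lower. Rescaling to TPM gave 1730 higher and 974 lower for sgKLB and 2238 higher and 639 lower for sgFGFR3/4 against sgNTC, where it moved the median of all genes from 0.075 to 0.17.

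The number of direct differences rests on single libraries. Leaving out sgFGFR3/4 replicate 2 raised it from 81 to 252, 70 of the 81 among them. Leaving out sgFGFR3/4 replicate 1 or 3 lowered it to 14 and 5, and leaving out sgKLB replicate 1, 2 or 3 lowered it to 14, 9 and 12. Only 5 of the 81 passed in all 6 of these fits, KLB, FGFR3, FGFR4, the cell cycle phosphatase CDKN3 and the antisense transcript AC084125.4. The last was listed at 0 in every other HuH-7 group and met the filter only through the sgFGFR3/4 libraries. Its passing in these fits is therefore no separate support. All of the 81 except PCGF5 kept their sign in every alternative run, and 60 passed after GC and length correction. 

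**Figure D1:**
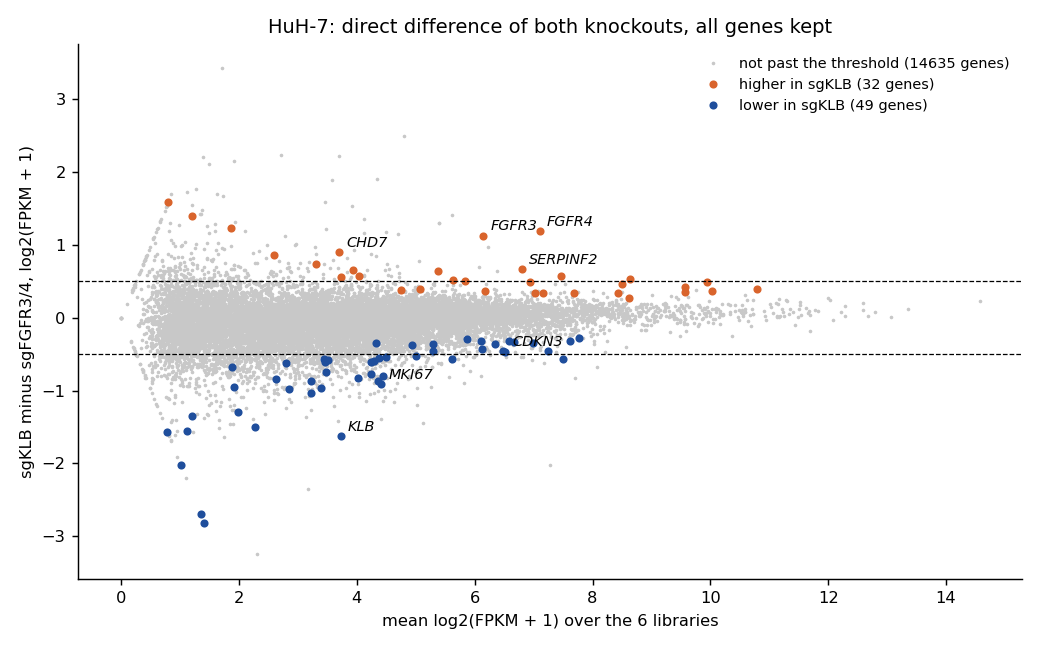
Each point is 1 of 14716 genes, placed by its mean log2(FPKM + 1) over the 6 libraries (horizontal) and its direct difference, sgKLB minus sgFGFR3/4 (vertical). Orange points are the 32 genes past the threshold that were higher in sgKLB, blue points the 49 that were lower, and dashed lines mark differences of 0.5 in either direction.

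Genes higher in sgKLB included the ligand FGF19 and 7 members of the plasma protein and coagulation lists. Of the 32 genes, 29 were also above sgNTC in sgKLB and 22 in sgFGFR3/4, with median changes against sgNTC of 0.85 and 0.39. These medians describe genes chosen by the direct difference and carry no test. The transcripts of this set had a median GC content of 53.8%, against 49.7% for all genes kept.

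FGF19 (ENSG00000162344; chromosome 11, 69698232 to 69704642), the ligand of this receptor system, was at 8.36, 7.82 and 8.81 FPKM in sgNTC, 13.8, 13.1 and 10.7 in sgFGFR3/4 and 20.1, 17.97 and 19.3 in sgKLB. All 3 groups were apart, with sgKLB highest, and the direct difference was 0.58 ± 0.11 (SE; adjusted p 0.0419). In sgFGFR4 it stayed at 8.51, 8.01 and 9.03 FPKM, overlapping sgNTC. SERPINF2, the plasma inhibitor of plasmin (chromosome 17, 1742836 to 1755268), was at 34.5, 33.9 and 39.5 FPKM in sgNTC, 84.7, 95.95 and 83.01 in sgFGFR3/4 and 145, 132 and 142 in sgKLB. Its direct difference was 0.67 ± 0.079 (SE; adjusted p 0.00583), and its adjusted p stayed below 0.05 in all fits that left out 1 library except that without sgFGFR3/4 replicate 3 (0.0534).

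AGT, which encodes angiotensinogen (chromosome 1, 230702523 to 230714297), was at 329.9, 361 and 306 FPKM in sgFGFR3/4 and 500.2, 466 and 474 in sgKLB, a difference of 0.53 ± 0.072 (SE; adjusted p 0.0123). Other secreted plasma proteins followed with smaller differences. Transferrin (TF) was at 1599, 1580 and 1441 FPKM in sgFGFR3/4 and 1938, 2062 and 2096 in sgKLB (0.40, adjusted p 0.0219). The fibrinogen alpha chain FGA was at 685, 661 and 654 and 869, 866 and 832 FPKM (0.36, adjusted p 0.00795). Every sgKLB library lay above every sgFGFR3/4 library for these genes, and all 3 of them rose against sgNTC in both knockouts. The antiprotease SERPINA1 (0.42), the main apolipoprotein of HDL APOA1 (0.47), vitronectin VTN (0.49), the plasma protease HABP2 (0.50) and the C1 inhibitor SERPING1 (0.86) were likewise higher in sgKLB, with adjusted p of 0.0325, 0.0482, 0.0419, 0.019 and 0.0419. The lipid droplet coat protein PLIN2 (0.34, adjusted p 0.033) was above sgFGFR3/4 too. When each library was left out in turn, FGA passed 4 of 6 times and TF 2 of 6 times, whereas SERPINA1, APOA1, VTN, HABP2, SERPING1 and PLIN2 passed only without sgFGFR3/4 replicate 2.

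The remaining leading genes of this direction did not all repeat that graded order. RARRES3, a retinoid-induced phospholipase (chromosome 11, 63536809 to 63546462), was at 3.78, 3.64 and 2.92 FPKM in sgNTC, 7.21, 6.05 and 6.73 in sgFGFR3/4 and 13, 11.4 and 10.9 in sgKLB (0.74, adjusted p 0.0418). NDRG1, a gene induced by hypoxia and differentiation (chromosome 8, 133237171 to 133302022), was at 73.2 to 78.05, 129 to 156 and 196 to 247 FPKM in the same order (0.57, adjusted p 0.0237). The proteoglycan SPOCK2 (0.56, adjusted p 0.0433) and the endosomal RAB11 effector RAB11FIP4 (0.52, adjusted p 0.0278) rose against sgNTC in sgKLB, at 0.74 and 0.75, and did not pass the threshold in sgFGFR3/4.

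CHD7 and VPS53 lay on either side of sgNTC. CHD7, a chromatin remodeller (chromosome 8, 60678778 to 60868028), was at 17.9, 16.1 and 16.5 FPKM in sgKLB, 9.93, 13.8 and 12.2 in sgNTC and 10.2, 6.52 and 9.34 in sgFGFR3/4. The direct difference was 0.90 ± 0.17 (SE; adjusted p 0.0419), although neither knockout passed the threshold against sgNTC (0.47 and -0.43, adjusted p 0.0742 and 0.0939). VPS53, a subunit of the vesicle tethering complex GARP (chromosome 17, 508668 to 721717), was at 20.7, 17.7 and 16.7 FPKM in sgKLB and 11.2, 11.7 and 10.8 in sgFGFR3/4, with sgNTC between them at 13.2, 14.3 and 14.3 and a direct difference of 0.66 ± 0.10 (SE; adjusted p 0.0236). Without each library in turn, except sgFGFR3/4 replicate 2, the adjusted p of FGF19, AGT, RARRES3, NDRG1, RAB11FIP4, CHD7 and VPS53 rose above 0.05, to at most 0.167, 0.0667, 0.148, 0.109, 0.141, 0.148 and 0.109, and that of SPOCK2 without any of the 6, to at most 0.195.

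**Figure D2:**
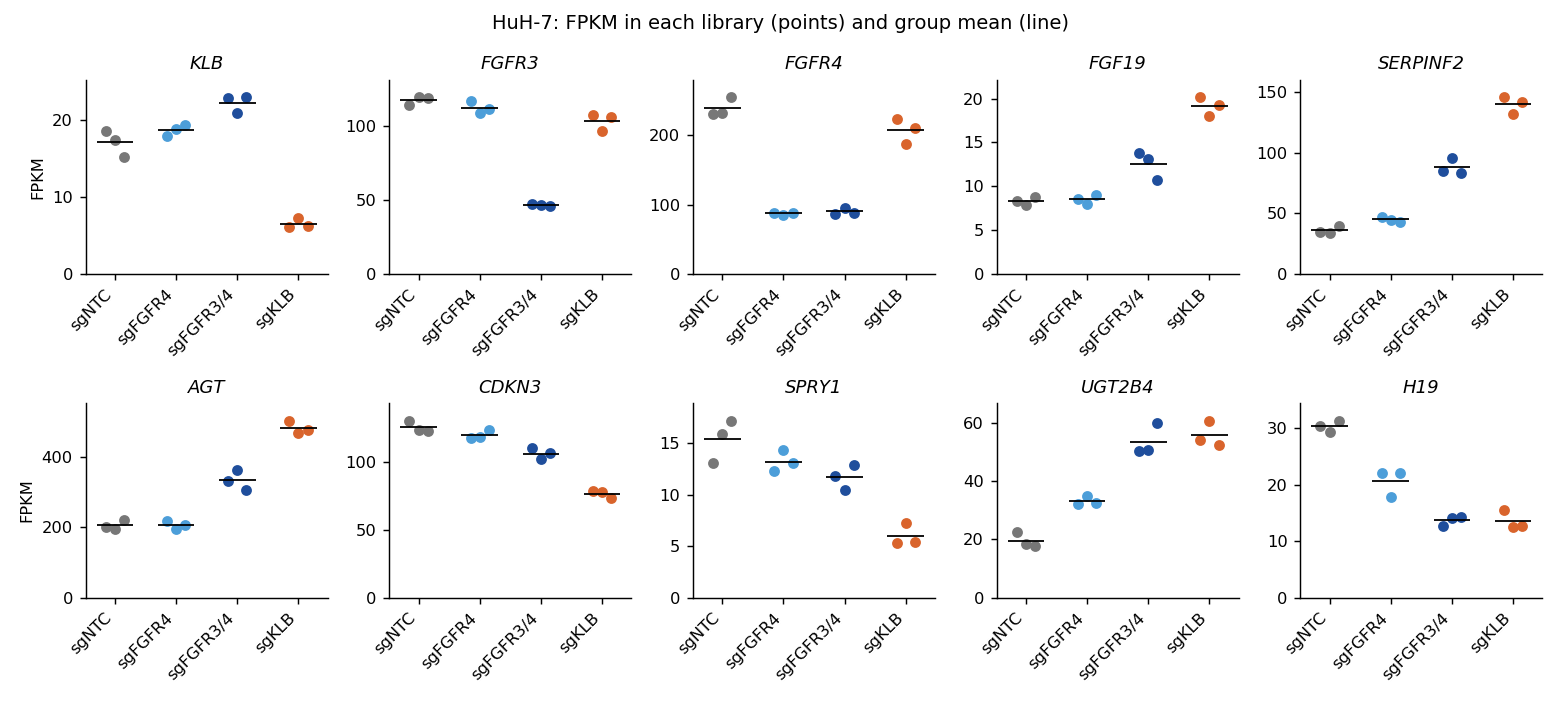
FPKM (vertical axis, from 0) of 10 genes in each HuH-7 library, with 3 points per group and a line at the group mean. The targeted genes KLB, FGFR3 and FGFR4 come first, SERPINF2, AGT and FGF19 rise from sgNTC over sgFGFR3/4 to sgKLB, CDKN3 and SPRY1 fall to sgKLB, and UGT2B4 and H19 are level in sgFGFR3/4 and sgKLB.

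Genes lower in sgKLB included 5 members of the mitosis list, 4 of the DNA replication list and the ERK targets SPRY1 and ETV4. Of the 49 genes, 38 fell against sgNTC in sgKLB and none rose, while in sgFGFR3/4 17 fell and 10 rose. Median changes against sgNTC were -0.76 in sgKLB and -0.10 in sgFGFR3/4, again a description of genes chosen by the direct difference. Their transcripts had a median GC content of 43.1%, below the 49.7% of all genes kept.

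MKI67, the proliferation antigen Ki-67 (chromosome 10, 128096659 to 128126385), was at 14.1, 16.4 and 13.4 FPKM in sgKLB and 29.7, 23.2 and 32.6 in sgFGFR3/4, with sgNTC at 37.7, 31.8 and 23.1. The sgFGFR3/4 values lay within the sgNTC range, all sgKLB values lay below both, and the direct difference was -0.91 ± 0.16 (SE; adjusted p 0.0418). CEP55, needed for the final separation of daughter cells (chromosome 10, 93496632 to 93529092), was at 13.1, 14.5 and 12.98 FPKM in sgKLB and 24.6, 20.4 and 26.6 in sgFGFR3/4 (-0.77, adjusted p 0.0432). The mitotic kinase PBK (chromosome 8, 27809620 to 27838095) was at 12.3, 14.8 and 15.9 and 23.4, 21.4 and 21.9 FPKM (-0.60, adjusted p 0.0236). In all 3 genes the sgKLB libraries lay below every sgFGFR3/4 library, and sgFGFR3/4 did not pass the threshold against sgNTC. CDKN3, a phosphatase of cyclin-dependent kinases (chromosome 14, 54396849 to 54420218), had narrow groups, 79, 78.02 and 73.7 FPKM in sgKLB, 110.1, 102 and 107 in sgFGFR3/4 and 130.3, 124 and 123 in sgNTC. Its direct difference of -0.46 ± 0.054 (SE; adjusted p 0.00583) passed without any 1 library, but after GC and length correction it was -0.28 (adjusted p 0.0791). The spindle checkpoint kinase BUB1 was at 16.4, 16.5 and 15.8 FPKM in sgKLB and 25.5, 22.99 and 24.3 in sgFGFR3/4 (-0.55, adjusted p 0.0239). With 1 library left out, BUB1 passed only without sgFGFR3/4 replicate 2.

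Genes of DNA repair and chromatin joined them. FANCD2, the central protein of crosslink repair (chromosome 3, 10026414 to 10101930), was at 9.74, 11.7 and 12.3 FPKM in sgKLB and 15.6, 23.9 and 23.4 in sgFGFR3/4 (-0.82, adjusted p 0.0414). DEK, a chromatin protein (chromosome 6, 18223868 to 18264823), was at 11.99, 16.99 and 13.7 and 28.1, 22.4 and 29.9 FPKM (-0.87, adjusted p 0.0418). The exonuclease EXO1 (-0.57), the sliding clamp PCNA (-0.35), the helicase subunit MCM6 (-0.37), the flap endonuclease FEN1 (-0.32) and UHRF1, which maintains DNA methylation (-0.35), were lower in sgKLB with adjusted p of 0.0487, 0.0236, 0.0419, 0.0431 and 0.0492. After GC and length correction the adjusted p was 0.0824 for EXO1, 0.0561 for PCNA and 0.178 for MCM6, whose difference shrank to -0.20, and leaving out any 1 library, except sgFGFR3/4 replicate 2 for PCNA and MCM6, ended each of the 5 calls. EXO1, like CDKN3 and HABP2, was chosen after its values were seen. All 5 fell against sgNTC in both knockouts, for example -0.82 in sgKLB and -0.48 in sgFGFR3/4 for PCNA.

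In the ERK feedback loop, SPRY1, a Sprouty inhibitor of receptor signalling (chromosome 4, 123396795 to 123403760), was at 5.30, 7.26 and 5.38 FPKM in sgKLB, 11.8, 10.4 and 12.9 in sgFGFR3/4 and 13.1, 15.9 and 17.1 in sgNTC. The sgKLB values lay apart from both, with a direct difference of -0.87 ± 0.14 (SE; adjusted p 0.0236), and sgFGFR3/4 did not pass the threshold against sgNTC (-0.36, adjusted p 0.0935). ETV4, an ETS factor induced by ERK (chromosome 17, 43527844 to 43579620), was at 17.9, 16.8 and 18.3 FPKM in sgKLB, 27.9, 26.6 and 23.8 in sgFGFR3/4 and 47.2, 49.6 and 60.5 in sgNTC, with a direct difference of -0.54 ± 0.10 (SE; adjusted p 0.0419). It fell in both knockouts, further in sgKLB. Leaving out any 1 library ended the direct call of ETV4, with adjusted p of up to 0.16, and leaving out sgKLB replicate 1 or 3 or sgFGFR3/4 replicate 1 or 3 ended that of SPRY1 (up to 0.125).

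The other leading genes of this direction were C2orf74, ERCC6L2, ERGIC2, TRPC4 and PHACTR2. C2orf74 (chromosome 2, 61145068 to 61164829) was at 4.97, 6.03 and 5.57 FPKM in sgKLB and 9.52, 13.1 and 14.8 in sgFGFR3/4 (-1.03, adjusted p 0.0278). ERCC6L2, a helicase of DNA repair (chromosome 9, 95875701 to 96014571), was at 7.31, 6.71 and 5.74 and 12.5, 14.01 and 14.7 FPKM (-0.96, adjusted p 0.0432), and here sgFGFR3/4 was above sgNTC (0.92, adjusted p 0.00737) while sgKLB was not below it (-0.043, adjusted p 0.91). ERGIC2, a protein of the early secretory pathway, differed by -0.80, the cation channel TRPC4 by -0.74 and PHACTR2, a regulator of protein phosphatase 1, by -0.61, with adjusted p of 0.0255, 0.0418 and 0.0487. Corrected for GC content and length, the adjusted p was 0.0549 for ERCC6L2, 0.0561 for FANCD2, 0.0561 for PBK and 0.23 for ERGIC2, whose difference shrank to -0.41. The other leading genes of this direction passed after the correction. Leaving out single libraries ended each of these calls except KLB in at least 4 of the 6 fits, with the highest adjusted p, 0.206, for PHACTR2.

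Other list members past the threshold were few. NR1H4, which encodes FXR, the nuclear receptor for bile acids (chromosome 12, 100473708 to 100564413), was at 6.99, 8.52 and 8.27 FPKM in sgKLB, 12.2, 12.1 and 12.2 in sgFGFR3/4 and 13.5, 11.3 and 10.8 in sgNTC. It fell against sgNTC in sgKLB (-0.53, adjusted p 0.00447) and did not pass in sgFGFR3/4 (0.036, adjusted p 0.839), and the direct difference was -0.57 ± 0.10 (SE; adjusted p 0.0419). The WNT inhibitor DKK1 was at 74.4, 72.1 and 78.2 FPKM in sgKLB, 106, 89.8 and 114 in sgFGFR3/4 and 159.9, 141 and 140 in sgNTC (-0.45, adjusted p 0.0419), and the antiproliferative p53 target BTG2 rose stepwise, at 17.2, 17.1 and 16.5, 30.5, 26.6 and 28.5 and 37.02, 37.7 and 38.5 FPKM from sgNTC over sgFGFR3/4 to sgKLB (0.39, adjusted p 0.0419). After their values were seen, several matrix and secreted proteins were also picked out. The basement membrane proteins NID1 and NID2 moved in opposite directions. NID1 was at 100.3, 100.2 and 102 FPKM in sgNTC, 124, 134 and 121 in sgFGFR3/4 and 164, 156 and 162 in sgKLB (0.35, adjusted p 0.0236), and NID2 at 105, 104 and 108, 62.6, 64.7 and 63.7 and 52.1, 50.1 and 54.1 (-0.28, adjusted p 0.0419). The matrix protein TGFBI was higher in sgKLB (0.34), while the matrix protein EFEMP1 (-0.34), the growth factor carrier IGFBP3 (-0.27) and the amino acid transporter SLC6A14 (-0.95) were lower, with adjusted p of 0.0326, 0.0278, 0.0419 and 0.0418. By group mean, sgFGFR3/4 lay between sgNTC and sgKLB in each of these genes except NR1H4, where it lay within the sgNTC range. After GC and length correction the difference of DKK1 was -0.27 (adjusted p 0.0738) and that of NR1H4 -0.35 (adjusted p 0.1). With 1 library left out, BTG2 and IGFBP3 passed in none of the 6 fits. The other genes named here passed only without sgFGFR3/4 replicate 2.

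Promoters of dividing cells' genes often carry a CCAAT box and a cell cycle homology region (CHR), so the 250 bases before the start of genes kept were searched for both on both strands, as CCAAT and TTTGAA. RefSeq promoters on GRCh38.p14 were matched for 10734 of 14716 genes and for 50 of the 81. Of 32 matched promoters of genes lower in sgKLB, 17 (53.1%) held CCAAT and 6 (18.8%) held TTTGAA, against 35.2% and 8.37% of all matched promoters. Of 18 matched promoters of genes higher in sgKLB, 6 (33.3%) held CCAAT and 2 (11.1%) TTTGAA. The ETS core CCGGAA was in 21.9% of the lower, 16.7% of the higher and 25.3% of all promoters, and the short HNF1 motif GTTAAT in 3.12%, 5.56% and 3.53%. GC content was 61.4% in the promoters of lower genes and 64.0% in all, and these shares were not tested. The promoters of 4 cell division genes lower in sgKLB are shown because they hold these letters, with the CCAAT box (or ATTGG, its reverse complement) and the CHR letters TTTGAA (or TTCAAA on the other strand) in capitals. That of FGA, higher in sgKLB, has the HNF1 motif in capitals, which reads ATTAAC here because it lies on the opposite strand. In MKI67 a TTTGAA and an ATTGG overlap by 1 base.
MKI67 (GRCh38.p14, chr10:128126424-128126673, minus strand): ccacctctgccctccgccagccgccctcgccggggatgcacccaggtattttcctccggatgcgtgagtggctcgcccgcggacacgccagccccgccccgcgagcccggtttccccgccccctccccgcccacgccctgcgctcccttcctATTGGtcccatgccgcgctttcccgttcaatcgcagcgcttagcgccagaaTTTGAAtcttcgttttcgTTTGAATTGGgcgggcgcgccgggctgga
CEP55 (GRCh38.p14, chr10:93496362-93496611, plus strand): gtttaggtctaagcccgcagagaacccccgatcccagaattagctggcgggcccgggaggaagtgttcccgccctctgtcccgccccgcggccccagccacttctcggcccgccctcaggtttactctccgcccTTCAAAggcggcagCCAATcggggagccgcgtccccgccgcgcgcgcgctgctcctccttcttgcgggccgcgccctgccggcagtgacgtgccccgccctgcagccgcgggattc
BUB1 (GRCh38.p14, chr2:110678064-110678313, minus strand): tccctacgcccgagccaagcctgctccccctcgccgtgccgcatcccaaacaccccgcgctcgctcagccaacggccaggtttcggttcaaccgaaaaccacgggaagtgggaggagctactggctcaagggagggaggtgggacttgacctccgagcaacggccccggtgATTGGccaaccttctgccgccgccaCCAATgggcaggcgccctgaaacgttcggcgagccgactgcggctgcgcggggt
CDKN3 (GRCh38.p14, chr14:54396757-54397006, plus strand): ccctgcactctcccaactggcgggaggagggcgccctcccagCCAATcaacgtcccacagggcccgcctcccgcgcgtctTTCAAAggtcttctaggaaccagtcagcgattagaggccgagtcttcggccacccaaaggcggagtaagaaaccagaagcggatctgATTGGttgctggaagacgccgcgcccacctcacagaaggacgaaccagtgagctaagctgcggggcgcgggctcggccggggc
FGA (GRCh38.p14, chr4:154590743-154590992, minus strand): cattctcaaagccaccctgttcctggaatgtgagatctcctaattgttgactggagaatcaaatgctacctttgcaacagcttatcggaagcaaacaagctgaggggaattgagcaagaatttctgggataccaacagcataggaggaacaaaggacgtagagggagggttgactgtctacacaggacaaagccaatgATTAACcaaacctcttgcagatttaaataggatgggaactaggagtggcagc
The CDKN3 promoter held 2 CCAAT boxes, 1 on each strand, at 208 and 83 bases before the start, and a TTCAAA at 170 bases before it. In BUB1 the boxes began 54 and 79 bases before the start with no TTTGAA in the window. A match describes the letters of the window and says nothing of binding.

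Genes changed alike by both knockouts were named from those past the threshold in the same direction against sgNTC in each, with a direct interval within the margin. They show where co-receptor and double receptor loss met. Among rises, CLTRN, a membrane partner of amino acid transporters, was at 3.48, 3.91 and 2.89 FPKM in sgNTC, 13.02, 11.6 and 13.9 in sgFGFR3/4 and 13.2, 15.1 and 14.3 in sgKLB. Both knockouts overlapped, and the interval of the direct difference was -0.12 to 0.39. UGT2B4, which conjugates bile acids with glucuronic acid, was at 22.6, 18.3 and 17.7 FPKM in sgNTC, 50.2, 50.5 and 59.8 in sgFGFR3/4 and 54.1, 60.6 and 52.4 in sgKLB, with an interval of -0.17 to 0.28. The steroid and drug hydroxylase CYP3A5 was at 2.59 to 4.16, 7.72 to 10.6 and 7.43 to 11.3 FPKM, with an interval of -0.35 to 0.45. ERP27, a chaperone of the endoplasmic reticulum, rose by 1.69 in sgKLB and 1.47 in sgFGFR3/4, the cadherin CDH6 by 1.32 and 1.25, the matrix protein NPNT by 1.19 and 1.32, the ubiquitin ligase adaptor KLHL24 by 1.16 and 1.19, and the mitochondrial dehydrogenase ACADSB by 1.14 and 1.23. The changes in both knockouts share the sgNTC libraries.

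Among falls, SPRY4, a relative of SPRY1, was at 21.8, 22.1 and 20.2 FPKM in sgNTC, 10.1, 9.91 and 11.1 in sgFGFR3/4 and 9.22, 7.74 and 8.15 in sgKLB. Its direct interval of -0.47 to -0.081 lay within the margin and below 0, its adjusted p was 0.154, and the 6 values of both knockouts did not overlap. H19, a fetal noncoding RNA, was at 30.4, 29.4 and 31.3 FPKM in sgNTC, 12.7, 14.2 and 14.3 in sgFGFR3/4 and 15.6, 12.6 and 12.7 in sgKLB, where both knockouts overlapped. It fell by 1.11 on the log2 scale in sgKLB and by 1.09 in sgFGFR3/4. The chemokine CXCL1 changed by -1.02 and -0.95, the interferon-induced membrane protein IFITM2 by -0.99 and -0.94, and the serum amyloid A apolipoprotein SAA4 by -0.87 and -0.85. CDC45 and GINS2, both parts of the replicative helicase, changed by -1.17 and -1.07 in sgKLB and by -0.94 and -0.86 in sgFGFR3/4.

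By gene list, the direct medians farthest from 0 were negative for long transcripts, mitosis, DNA replication and the MAPK activity signature and positive for plasma proteins and coagulation. The lists were chosen with earlier results of these data known, and each median stands beside -0.023 for the direct difference of all genes kept, of which 6710 were positive and 7999 negative. All 28 DNA replication genes were lower in sgKLB than in sgFGFR3/4, with a median direct difference of -0.32 and 4 past the threshold, none of them higher. Against sgNTC, 27 of the 28 fell in sgKLB and 20 in sgFGFR3/4, with medians of -0.81 and -0.55. All 28 mitosis genes were also lower in sgKLB, with a median of -0.39 and 5 past the threshold, none higher. Against sgNTC 21 of them fell in sgKLB and 12 in sgFGFR3/4, with medians of -0.67 and -0.14. The median GC content of these lists was 47.9% and 44.9%, and after GC and length correction their direct medians were -0.24 and -0.31, with 4 and 7 genes past the threshold. The summed FPKM of the mitosis list was 1005 to 1047 in sgKLB, 1335 to 1368 in sgFGFR3/4 and 1686 to 1752 in sgNTC, with no overlap. Fewer dividing cells and less of these RNAs per cell cannot be told apart in bulk samples.

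All 9 genes kept of a MAPK activity signature, transcripts induced by ERK, were lower in sgKLB, with a median direct difference of -0.26, but only ETV4 passed. In sgKLB 7 of the 9 fell against sgNTC and in sgFGFR3/4 6, with medians of -1.01 and -0.55, beside -0.26 in sgFGFR4. ETV5, the close relative of ETV4, was at 7.97, 7.50 and 6.63 FPKM in sgKLB and 11.8, 15.1 and 8.94 in sgFGFR3/4, groups that did not overlap, but its spread in sgFGFR3/4 left the difference of -0.61 at an adjusted p of 0.113. The cyclin CCND1 differed by -0.26 (adjusted p 0.236). No immediate early gene passed the direct test, and the median of their 12 kept members was 0.019. Ribosome biogenesis genes were lower in sgKLB for 20 of 22, with a median of -0.14 and none past the threshold. Of 13 YAP target genes kept, CTGF, a secreted matrix protein, passed, at 175, 168 and 179 FPKM in sgKLB and 208, 233 and 212 in sgFGFR3/4 (-0.32, adjusted p 0.0419). With 1 library left out, CTGF passed only without sgFGFR3/4 replicate 2.

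Lists of liver function lay on the other side. Of 26 plasma protein genes kept, 24 had a positive direct difference and 4 passed (TF, SERPINA1, VTN and APOA1), with a median of 0.25. In both knockouts 16 of them rose against sgNTC. Of 17 coagulation and fibrinolysis genes, 15 were positive and 3 passed (SERPINF2, FGA and SERPING1), with a median of 0.23. Here 14 rose against sgNTC in sgKLB and 11 in sgFGFR3/4. The 18 fatty acid oxidation genes and PPARA targets, PLIN2 among them, had a direct median of 0.14. An exception in the plasma protein list was APOB, the structural protein of LDL, at 113, 132 and 105 FPKM in sgKLB and 192, 145 and 209 in sgFGFR3/4, a difference of -0.63 that did not pass (adjusted p 0.144).

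In other lists the knockouts were alike by interval. All 20 cytosolic ribosomal protein genes and all 13 mitochondrially encoded genes kept had direct intervals within the margin, and so did 22 of 24 cholesterol synthesis genes, 14 of 16 genes of the unfolded protein response, 21 of 24 ATF4 and amino acid response genes and 19 of 22 glycolysis and hypoxia genes. The share over all genes with a mean of at least 3 was 71.7%. The exceptions among cholesterol genes included STARD4, a sterol carrier, at 13.7, 16.7 and 12.7 FPKM in sgKLB and 26.9, 17.99 and 24.3 in sgFGFR3/4 (-0.64, adjusted p 0.13). The median direct difference of the cholesterol list was -0.0026, and its sign changed with GC and length correction to 0.048. Drug metabolism genes, 23 kept, had medians against sgNTC of 0.41 in sgKLB and 0.49 in sgFGFR3/4, and none passed the direct test. The nearest was the sulfotransferase SULT2A1, at 128, 127 and 121 and 105, 97.8 and 91.8 FPKM (0.35, adjusted p 0.0508). In bile acid synthesis, none of 10 genes passed the direct test. CYP27A1, which starts the acidic route, was at 16.4, 17.2 and 17.1 FPKM in sgNTC, 29.7, 30.8 and 27.4 in sgFGFR3/4 and 37.1, 35.99 and 41.1 in sgKLB (0.37, adjusted p 0.0743), and rose against sgNTC in both.

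**Figure D3:**
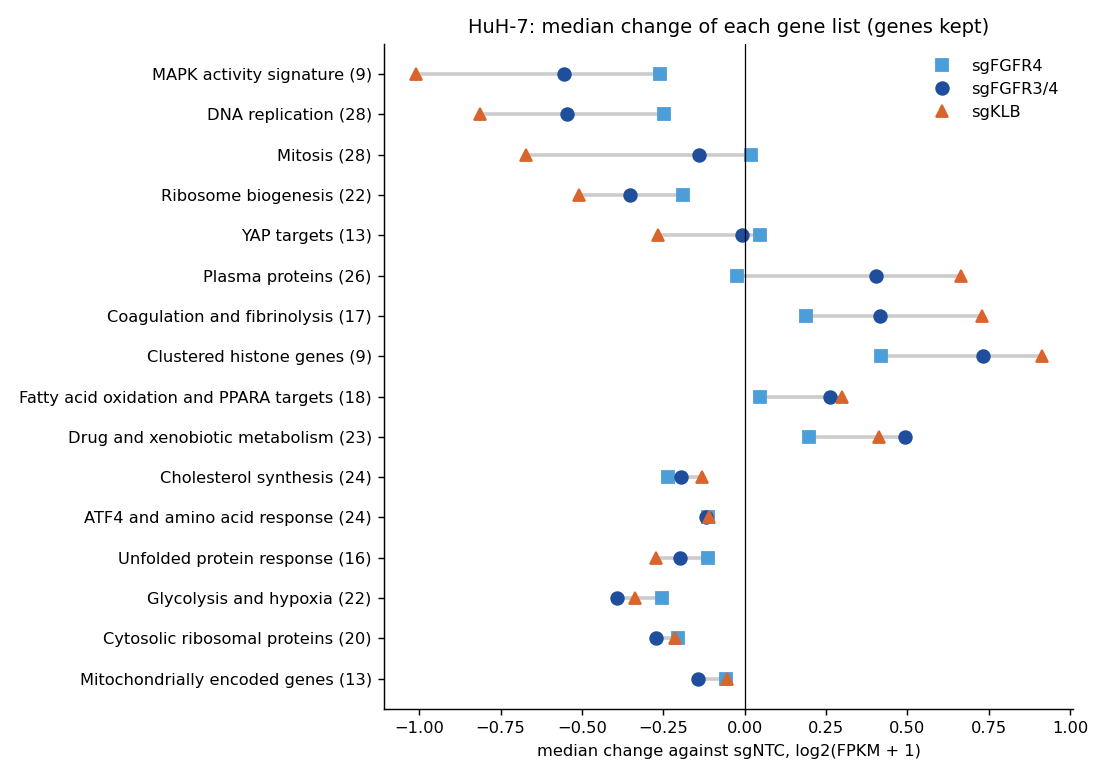
Median change against sgNTC in log2(FPKM + 1) (horizontal axis) for 16 gene lists, with the number of genes kept in parentheses, in sgFGFR4 (squares), sgFGFR3/4 (circles) and sgKLB (triangles). Circles and triangles are far apart for mitosis (-0.14 and -0.67) and close for ATF4 genes (-0.12 and -0.11), and all 3 groups share the sgNTC libraries.

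A list of 29 long transcripts had the lowest direct median of those run, -0.60, with 23 of 29 negative and none past the threshold. Against sgNTC its median was 0.041 in sgKLB, 0.48 in sgFGFR3/4 and 0.60 in sgFGFR4. Its median GC content was 41.7%, against 49.7% for all genes kept. Across genes the direct difference had a Spearman correlation of -0.048 with transcript length, beside 0.42 with GC content. Length was the median over a gene's annotated transcripts, short ones included, with a median of 1329 bases in this list and 965 over all genes kept. That measure hardly sets the list apart, so the correlation cannot speak to the length of full transcripts. The direct median moved to -0.86 without sgFGFR3/4 replicate 2, where 7 genes passed, to -0.40 without sgFGFR3/4 replicate 3, where none did, and to -0.35 with GC and length correction, where 2 did, all lower in sgKLB. The kinase anchor AKAP9 was at 13.5, 9.16 and 18.2 FPKM in sgFGFR3/4 and 4.12, 5.86 and 3.71 in sgKLB, and the condensin subunit SMC4 at 53.5, 33.6 and 61.3 and 17.8, 22.99 and 20.6. In both, sgFGFR3/4 replicate 2 lay closest to sgKLB. The part of transcript length or GC content in the genes lower in sgKLB was not tested.

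Some low transcripts listed at 0 in sgNTC and in 1 of the compared knockouts were picked out after their values were seen. AC084125.4, an antisense transcript (chromosome 8, 144512567 to 144513672), was listed at 0 in every sgKLB and sgNTC library and at 7.53, 6.81 and 4.19 FPKM in sgFGFR3/4. The pseudogene DNAJC19P5 (2.18, 7.37 and 9.13 FPKM) and the antisense transcript AL133523.1 (1.69, 1.90 and 2.35 FPKM) were likewise listed at 0 in sgKLB and sgNTC. All 3 were also listed at 0 in every sgFGFR4 library, so they met the filter only through the sgFGFR3/4 libraries where they are high. AC008105.2, a pseudogene, was at 3.10, 2.34 and 1.01 FPKM in sgKLB and 1.53, 0.750 and 2.39 in sgFGFR4, and was listed at 0 in sgFGFR3/4 and sgNTC. The strand setting of the counting is not given in the sources used here, so reads of an antisense transcript and of its partner cannot be told apart, and the values of DNAJC19P5 may hold reads of its parent gene.

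The same comparison in JHH-7, from libraries not used above, was larger and only partly parallel. There 2564 of 14987 genes (17.1%) differed between sgKLB and sgFGFR3/4, 1259 higher (8.4%) and 1305 lower (8.71%) in sgKLB, although the median standard error was about the same, 0.15 in both lines. Of the 30 non-targeted genes higher in HuH-7 sgKLB, all were kept in JHH-7, 18 had the same sign, 11 passed in the same direction and 3 in the opposite one. Of the 48 non-targeted genes lower in HuH-7 sgKLB, 43 were kept, 23 had the same sign, 8 passed in the same direction and 6 in the opposite one. SERPINF2 (1.27), NDRG1 (0.64), APOA1 (1.13), TF (0.87) and FGA (0.77) were higher in JHH-7 sgKLB as well, with adjusted p of 3.9e-08, 0.000468, 1.12e-06, 5.68e-07 and 5.79e-06. SPRY1 (-0.72) and ETV4 (-1.55) were lower there too, with adjusted p of 0.00143 and 1.81e-08.

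FGF19 and MKI67 did not follow. FGF19 was at 43.9, 47.7 and 45.9 FPKM in JHH-7 sgKLB and 134, 114 and 117 in sgFGFR3/4, a difference of -1.39 (adjusted p 1.26e-07), opposite in sign to HuH-7. The test of the line difference, JHH-7 minus HuH-7, gave -1.96 (adjusted p 8.71e-10), and 1375 of 16731 genes (8.22%) passed that test. MKI67 was higher in JHH-7 sgKLB by 0.34 (adjusted p 0.0476), with a line difference of 1.24 (adjusted p 0.000271). The median direct difference of the mitosis list was -0.053 in JHH-7 and that of DNA replication 0.15. The lists with JHH-7 medians farthest from 0 were ATF4, MAPK and amino acid transport genes. ATF4 and amino acid response genes had a median of -1.54 with 23 of 24 lower and past the threshold, the MAPK signature -1.16 with 7 of 9, and solute carriers for amino acids -1.14 with 11 of 16. Coagulation genes (0.65, 12 of 20 higher and past the threshold) and cholesterol synthesis genes (0.59, 17 of 24) were on the positive side.

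**Figure D4:**
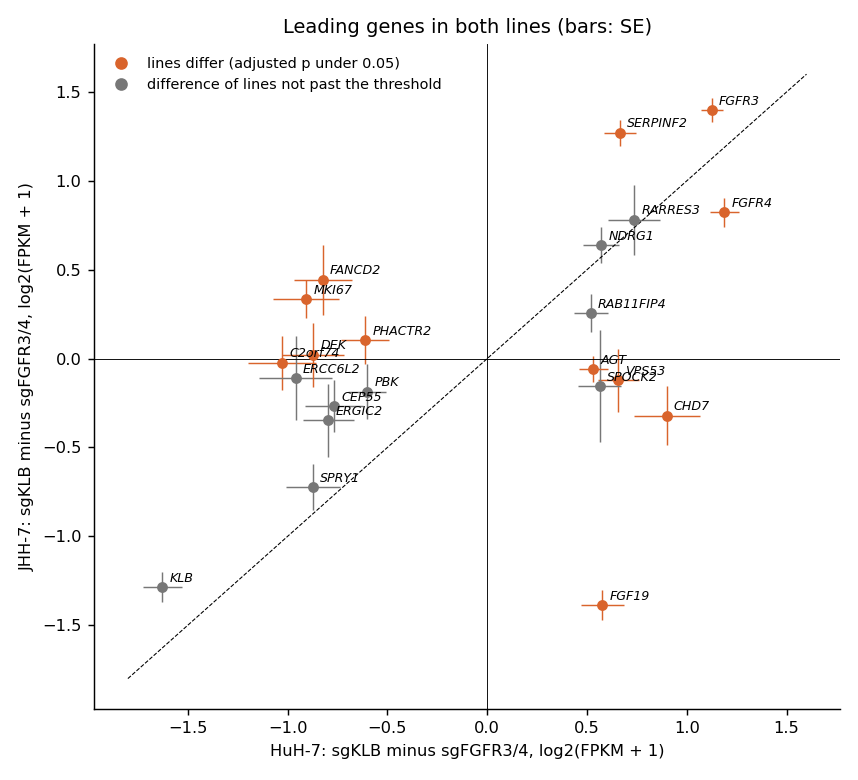
Direct difference, sgKLB minus sgFGFR3/4 in log2(FPKM + 1), of 22 leading HuH-7 genes in HuH-7 (horizontal) and JHH-7 (vertical), with bars of 1 standard error and a dashed line of equal values. Orange points are genes whose line difference passed the threshold. FGF19 lies at 0.58 and -1.39, and TRPC4, not kept in JHH-7, is left out.

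Genes chosen in JHH-7 alone gave a reading of HuH-7 free of the choice by HuH-7 values. JHH-7 sgKLB differed from sgNTC in 4781 genes (31.9%), 2326 higher (15.5%) and 2455 lower (16.4%), and those that moved by at least 1 were followed in HuH-7, without KLB, FGFR3 and FGFR4. This choice was made after the data had been seen and carries no test. The 394 genes that rose in JHH-7 and were kept in HuH-7 had a HuH-7 median against sgNTC of 0.48 in sgKLB, 0.32 in sgFGFR3/4 and 0.074 in sgFGFR4. Their direct difference had a median of 0.16, positive for 287, with 8 past the threshold higher and 2 lower, and was 0.17 after GC and length correction. The 304 genes that fell in JHH-7 had HuH-7 medians of -0.14 in sgKLB and -0.065 in sgFGFR3/4 and a direct median of -0.043, with 127 higher, 176 lower, and 1 past the threshold higher and 5 lower. Over all genes kept the direct median was -0.023, with 6710 higher and 7999 lower, and 32 (0.217%) past the threshold higher and 49 (0.333%) lower. The median of the fall set thus lay close to that of all genes. The share past the threshold in the set's own direction was above that of all genes in both sets.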

How the data were processed

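RNA-seq of cultured liver cancer cells was deposited by the authors as 1 table of FPKM per gene and library for each line. No label names the unit, which was read from the values. RSEM and the builds GRCh38 and hg38 are named per the submitters' processing notes, while their versions, the aligner and the annotation are not stated in those sources. All 58735 gene IDs were found in GENCODE 29, which gave positions, GC content and lengths. GC content and length were medians over the annotated transcripts of a gene. Libraries were assigned to groups by their labels.

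Values were transformed as log2(FPKM + 1), with 1 as the pseudocount. Genes needed 1 FPKM in at least 3 of the 12 HuH-7 libraries, of the JHH-7 libraries or, for the line difference, of the libraries of both lines. A group-means model was fitted to all 12 HuH-7 libraries with limma 3.58.1 (trend and robust variance, statmod 1.5.0, R 4.3.3), with 2-sided tests and Benjamini-Hochberg adjustment. The same model was fitted to all JHH-7 libraries, sgFGFR4 and sgFGFR1/3/4 among them. For the line difference it was fitted to every library of both lines. The procedure was tested on simulated data. Genes were called alike where the 95% interval of the direct difference lay within 0.5 of 0. The same-numbered libraries of sgKLB and sgFGFR3/4 deviated from their group means with correlations of -0.091, -0.22 and -0.11, so replicate numbers were not taken as pairs. The estimated depth assumed whole fragments behind low values. That estimate put 76.1% to 87.8% of values within 0.1 of a whole number, and it limits low genes most.

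Genes named are KLB, FGFR1 to FGFR4 and FGF19, the 12 largest direct differences in each direction past the threshold with a mean of at least 3, no overlap and no pseudogene, up to 4 members per list and direction with the smallest p, and the 8 rises and 8 falls that moved most in both knockouts against sgNTC and were alike. The genes and lists were chosen with earlier results of these data known. Alternatives changed the pseudocount (0.1, 0.5), the filter, the scaling (TPM, quantile), the replicate block, the libraries fitted and a per-library spline correction for GC content and length. Some genes that the rule names are not reported here. Promoters are from RefSeq. Sequences of the guides and proteins were not used here.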

Additional observations from a re-analysis of the deposited data

Results flagged for a closer look

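For 13 of the leading and targeted genes, the direct difference, sgKLB minus sgFGFR3/4, differed between JHH-7 and HuH-7 by limma's interaction test across all genes of both lines. Values are JHH-7 minus HuH-7 in log2(FPKM + 1), with adjusted p over all genes. The differences ran opposite in sign in both lines for FGF19 (-1.96, adjusted p 8.71e-10), MKI67 (1.24, adjusted p 0.000271), FANCD2 (1.27, adjusted p 0.00324), CHD7 (-1.22, adjusted p 0.00243), VPS53 (-0.78, adjusted p 0.0235), AGT (-0.59, adjusted p 0.000691), DEK (0.89, adjusted p 0.0307) and PHACTR2 (0.72, adjusted p 0.0156). Of these, AGT, VPS53, DEK and PHACTR2 were close to 0 in JHH-7, at -0.059, -0.12, 0.022 and 0.10. FANCD2 (0.44, adjusted p 0.15) and CHD7 (-0.32, adjusted p 0.22) did not pass the threshold in JHH-7 either, so only FGF19 and MKI67 passed there. For C2orf74 (1.00, adjusted p 0.00845) the JHH-7 value was -0.023, and TRPC4 (0.73, adjusted p 0.00534) was below the filter in JHH-7 alone.

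The difference was of the same sign and larger in JHH-7 for SERPINF2 (0.61, adjusted p 0.000568), at 1.27 against 0.67. Among the targeted genes the line difference was -0.37 for FGFR4 (adjusted p 0.0396) and 0.27 for FGFR3 (adjusted p 0.0364).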

How the results depend on the processing

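The count of 81 direct differences depended on the processing. It was 20 with no filter on low values, 8 with the 2 groups fitted alone and 143 with GC and length correction, and it ran from 5 to 252 when 1 library was left out. Pseudocounts of 0.1 and 0.5, the stricter filter, TPM and quantile scaling gave 80 to 85. With a replicate block it was 9, and no replicate pairing is given by the labels. Whether same-numbered libraries were handled together is not stated, and the cause of this lower count was not tested. Of the 81 genes, PCGF5 alone changed sign under any alternative, to 0.098 with GC and length correction (adjusted p 0.722). The size of some differences shrank with that correction, for LUM from -0.56 to -0.21, ERGIC2 from -0.80 to -0.41 and MCM6 from -0.37 to -0.20. Others moved less, such as SERPINF2, from 0.67 to 0.60.

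The number of genes alike was 18099 with no filter, where 29433 genes were tested, and 6260 to 7035 when 1 library was left out. For sgFGFR3/4 against sgNTC the count of 2371 became 1433 with no filter and 881 with the 2 groups alone, and ran from 1153 to 2743 without 1 library. For JHH-7 the direct count of 2564 became 1520 with the 2 groups alone. More genes were tested with no filter, and fits with fewer libraries had fewer residual degrees of freedom. The part of either in these shifts was not tested, nor was any other cause. Depth was estimated rather than given, so precision at low FPKM is known only through the replicates.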
